A study of Mus musculus with 5 samples.

Results

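Enpep and 6 other membrane peptidases (Anpep, Dpp4, Ace, Ece1, Mme and Lnpep) were read on 18 array probes, which were taken by gene name from 56605 probes with 37074 gene names. The set was selected on measured values, since it started from Enpep, whose signal was low on all arrays of tumor endothelial cells (TECs). The levels of Enpep are therefore a description, and no value below was tested.

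The arrays compared liver sinusoidal endothelial cells (LSECs) of mouse liver with TECs of 3 hepatoma models and with cultured Hepa 1-6 cancer cells, on 1 Agilent 60-mer array each and 5 arrays in all. The TECs came from tumors of HAK1B and KYN2, both human hepatoma lines, and of Hepa1-6, a mouse hepatoma line, and were taken with magnetic beads against CD31, the endothelial surface protein encoded by Pecam1. Where the labels name HAK1B, the array paragraph of the methods names Huh-7, another human hepatoma line, and the labels were followed here. The labels give strain C57BL/6 for LSECs and all TECs and C57L for the cultured cells, whereas the methods name female C57BL/6 or nude BALB/c nu/nu mice, bought at 6 weeks of age, without saying which mice carried which tumor on the arrays. No sample carried an engineered allele or a drug according to the labels, and how many animals stood behind an array is not given in the sources used here.

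Membrane peptidases sit in the plasma membrane with the catalytic domain outside the cell and cut small peptides in blood and tissue fluid. Glutamyl aminopeptidase (Enpep) removes an acidic residue from angiotensin II, alanyl aminopeptidase (Anpep, CD13) takes the next residue, angiotensin-converting enzyme (Ace) makes angiotensin II and degrades bradykinin, and endothelin-converting enzyme (Ece1) releases active endothelin from its precursor. Dipeptidyl peptidase 4 (Dpp4, CD26) cuts incretins and CXCL12, neprilysin (Mme, CD10) degrades natriuretic peptides, kinins and other peptides, and Lnpep is the insulin-regulated aminopeptidase that cuts oxytocin and vasopressin.

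The probe sequences below are shown because each value is the signal of such a 60-base oligonucleotide, and probes of 1 gene did not always move alike. They are written 5′ to 3′, with probe positions in build mm9 as deposited, and coding and untranslated sequence were not told apart here. The bright Enpep probe A_51_P161830 lies at chr3:128972910-128972969 on the minus strand, and the bright Dpp4 probe A_51_P467110 at chr2:62170062-62170121 on the minus strand. The Enpep probe A_66_P103820 (chr3:129002052-129006662) and the Dpp4 probe A_52_P417368 (chr2:62192636-62194702) span a splice junction, with 4551 and 2007 intron bases inside their spans, and are printed whole. The Anpep probe A_55_P2085905 lies at chr7:86966716-86966775 on the minus strand. The first 30 bases are given for the other 3 probes.
Enpep A_51_P161830: gctaagtgttcttcatgggaaagtctttac
Enpep A_66_P103820: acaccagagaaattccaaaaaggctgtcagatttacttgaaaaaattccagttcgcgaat
Dpp4 A_51_P467110: caaagcactgacttctaagtaaaaccacag
Dpp4 A_52_P417368: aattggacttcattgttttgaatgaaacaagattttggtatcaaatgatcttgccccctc
Anpep A_55_P2085905: cacgagatccagaaccaaagaatcaacagg

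The brightest Mme probe, A_55_P2102738, was the only one of the 18 that shared a run of 20 or more bases with a probe of another gene name, as 3074 of the 56605 probes (5.43%) did. It shared 41 bases with a Zfp457 probe on the opposite strand and 23 bases with a Tdrd5 probe on the same strand. These windows of 30 bases are shown because they may bear on what the probe measured, with the shared bases in capitals. In LSEC the Zfp457 probe read 7.17 and the Tdrd5 probe 3.04, where this Mme probe read 16.51. The readings of the Zfp457 and Tdrd5 probes do not show what the Mme probe captured. The other Mme probes read 2.40, 2.81 and 2.32 in LSEC, and none was well above background there. The Tdrd5 probe was well above background on 1 array only. Whether transcripts of either gene added to the signal of the Mme probe was not tested.
Mme A_55_P2102738, bases 15 to 44, shared with Zfp457: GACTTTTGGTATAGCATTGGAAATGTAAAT
Mme A_55_P2102738, bases 31 to 60, shared with Tdrd5: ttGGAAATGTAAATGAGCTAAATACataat

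Promoter windows of 250 bases before the annotated start were read from RefSeq (build GRCm38.p6) for all 7 genes, which have 13 annotated starts among them. The letters GATAA, searched on both strands, were found in the windows of Enpep and Dpp4 and in no other of the 13, and 22.6% of 32851 promoters on the list hold them. Ece1, whose brightest probe was also lower in all TECs, held none in its 4 windows. The windows of Enpep and Dpp4 are shown because both genes were low on the TEC arrays, with GATAA in capitals. It starts 70 bases before the start of Enpep and 31 bases before that of Dpp4. The window of Enpep (chr3:129332750-129332999, minus strand) holds 6 CpG dinucleotides and that of Dpp4 (chr2:62412232-62412481, minus strand) holds 4. The window of Anpep holds 23 and that of Lnpep 25, the 4 windows of Ece1 hold 22, 23, 14 and 5, the 2 of Ace hold 19 and 1, and the 3 of Mme hold 2, 27 and 27. The median over all promoters was 6. The letters TATAA (in 22.8% of all promoters) and CCGGAA (12.0%) were also searched on both strands. TATAA was found in windows of Enpep, Dpp4 and Ace, and CCGGAA in that of Lnpep. GATAA was chosen with the sequences and values in view, and its presence is a description of letters.
Enpep promoter: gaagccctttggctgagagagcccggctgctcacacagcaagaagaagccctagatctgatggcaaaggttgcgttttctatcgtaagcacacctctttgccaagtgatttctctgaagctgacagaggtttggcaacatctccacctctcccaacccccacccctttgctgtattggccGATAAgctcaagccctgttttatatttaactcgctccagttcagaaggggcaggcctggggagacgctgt
Dpp4 promoter: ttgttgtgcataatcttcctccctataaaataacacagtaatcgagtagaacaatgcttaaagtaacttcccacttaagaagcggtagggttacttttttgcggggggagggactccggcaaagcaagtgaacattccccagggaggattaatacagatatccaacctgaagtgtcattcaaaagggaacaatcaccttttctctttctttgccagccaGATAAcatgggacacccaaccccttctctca

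Values are normalized log2 intensities, that is, log2 of the background-subtracted spot signal after quantile normalization over the 5 arrays, and a log2 ratio is the difference of 2 such values. A probe counted as well above background when the scanner software flagged it so. With 1 array per condition there was no replicate check, and an SD over the 3 TECs is the spread between 3 tumor models and not between animals. LSECs, TECs and cultured cells were hybridized on 3 separate slides, so that slide and group cannot be told apart. Probes well above background made up 44.6% of all on the array of cultured cells and 54.1% to 78.1% on the others, with the highest share on the Hepa1-6 TEC array. The median log2 ratio over 26260 probes well above background on LSEC and all TEC arrays was 0.02 for HAK1B TEC, -0.22 for Hepa1-6 TEC and -0.03 for KYN2 TEC. Scaling to the 75th percentile instead moved the median of Hepa1-6 TEC to -0.04, and the others by less. All TEC comparisons share the 1 LSEC array, so its own error enters each of them.

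The endothelial label was checked against markers, and all 14 pan-endothelial and all 15 LSEC genes listed were well above background on LSEC and TEC arrays. On the array of cultured Hepa1-6 cells 4 and 3 of them were. Both lists were lower in TECs, however, with a median log2 ratio of -2.85 for the pan-endothelial genes in HAK1B TEC, -2.58 in Hepa1-6 TEC and -1.63 in KYN2 TEC. In samples of many cells, fewer cells of a type and less RNA per cell cannot be told apart.

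Enpep was bright in LSECs and dim on every other array. The probe A_51_P161830 read 11.38 in LSEC, 5.13 in HAK1B TEC, 5.80 in Hepa1-6 TEC, 5.54 in KYN2 TEC and 6.19 in cultured Hepa1-6 cells, and was well above background on all 5 arrays. The LSEC value stood alone, and the other 4 lay within about 1 log2 unit of each other. The lowest value called well above background was 4.28 in HAK1B TEC, 2.83 in Hepa1-6 TEC, 4.65 in KYN2 TEC and 5.96 in cultured cells. In HAK1B TEC, KYN2 TEC and cultured cells this probe lay little above that value, so its folds there rest on signal near background. Enpep was 76.2-fold lower than in LSEC in HAK1B TEC, 48.0-fold lower in Hepa1-6 TEC and 57.4-fold lower in KYN2 TEC, with a mean log2 ratio of -5.89 ± 0.34 (SD, n = 3 TECs). Only 1 of the 26260 probes well above background on LSEC and all TEC arrays had a lower mean. This rank is a description, since low TEC values chose the gene. With normexp background correction, which adds an offset to every signal, the mean was -4.69, and in Hepa1-6 TEC the log2 ratio was -4.84 with scaling to the 75th percentile.

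The second Enpep probe, A_66_P103820, moved in the same direction. It read 6.93 in LSEC, 4.72 in HAK1B TEC and 3.82 in Hepa1-6 TEC. It was not well above background in KYN2 TEC (3.53) or in cultured cells. Where a probe is above background on only 1 side of a comparison, the fold is a bound, taken against the higher of the dim value and the lowest value called well above background on the dim array. By this bound the probe was at least 4.86-fold lower in KYN2 TEC and at least 1.96-fold lower in cultured cells. Between TECs the bright probe differed by 1.59-fold at most, and between Hepa1-6 TEC and cultured Hepa1-6 cells the ratio was 0.765.

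**Figure D1:**
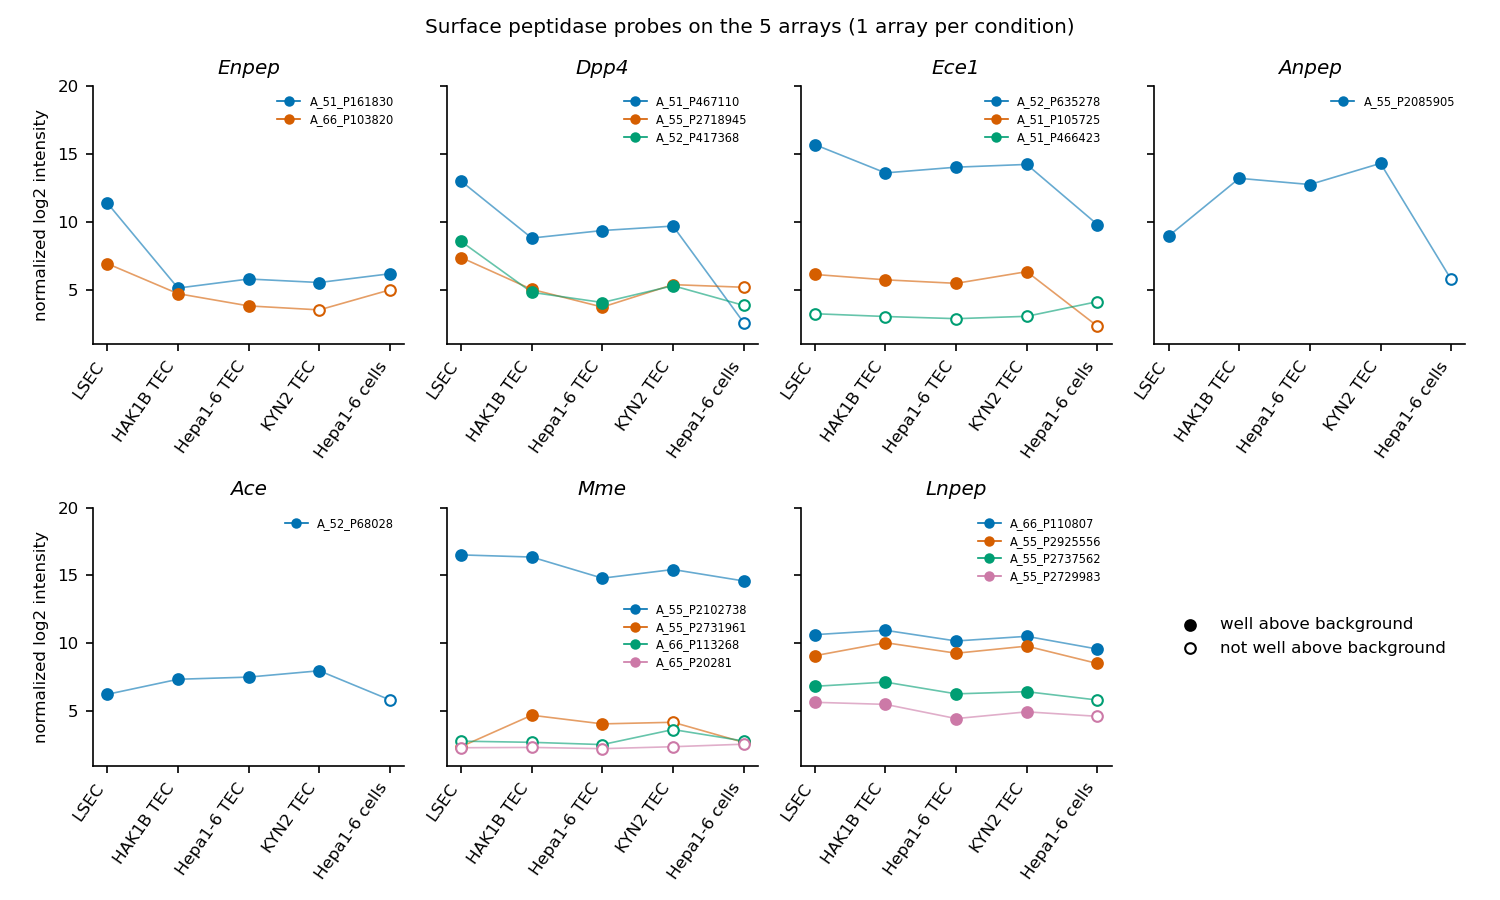
Normalized log2 intensity (vertical axis) of each of the 18 probes of the 7 peptidase genes on the 5 arrays (horizontal axis), 1 array per condition, with filled points well above background and open points not. Enpep A_51_P161830 falls from 11.38 in LSEC to between 5.13 and 6.19 on the other arrays, and Anpep rises from 8.96 in LSEC to between 12.75 and 14.31 in the TECs.

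Dpp4 was also lower in all TECs, and its 3 probes moved together. The probe A_51_P467110 read 13 in LSEC, 8.81 in HAK1B TEC, 9.37 in Hepa1-6 TEC and 9.69 in KYN2 TEC, and 2.59 in cultured Hepa1-6 cells, where it was not well above background. The 3 TECs lay between LSEC and the cultured cells, and every TEC value was far above the floor. Dpp4 was 18.2-fold lower in HAK1B TEC, 12.4-fold lower in Hepa1-6 TEC and 9.89-fold lower in KYN2 TEC (mean log2 ratio -3.71 ± 0.45, SD, n = 3 TECs), and at least 131-fold lower in cultured cells. In HAK1B TEC the reading was 1.84-fold below that in KYN2 TEC. The junction-spanning probe A_52_P417368 read 8.56 in LSEC, 4.82 in HAK1B TEC, 4.07 in Hepa1-6 TEC and 5.31 in KYN2 TEC, with a mean log2 ratio of -3.83 ± 0.62. The probe A_55_P2718945 read 7.38, 5.04, 3.73 and 5.39 on the same arrays, with a mean of -2.66 ± 0.87. Neither was well above background in cultured cells.

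Ece1 was bright and moderately lower in TECs. The probe A_52_P635278 read 15.69 in LSEC, 13.61 in HAK1B TEC, 14.03 in Hepa1-6 TEC, 14.23 in KYN2 TEC and 9.81 in cultured cells. The LSEC value was above all TEC values and all TEC values were above that of the cultured cells. The fold was 4.23 lower in HAK1B TEC, 3.16 lower in Hepa1-6 TEC, 2.75 lower in KYN2 TEC and 58.9 lower in cultured cells. A second Ece1 probe, A_51_P105725, read 6.13 in LSEC, 5.74 in HAK1B TEC, 5.48 in Hepa1-6 TEC and 6.34 in KYN2 TEC, so that it did not follow the first. Its log2 ratio in Hepa1-6 TEC, -0.65, turned to 0.11 with scaling to the 75th percentile. The third probe, A_51_P466423, was not well above background on any array.

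Anpep went the other way. Its only probe, A_55_P2085905, read 8.96 in LSEC, 13.21 in HAK1B TEC, 12.75 in Hepa1-6 TEC and 14.31 in KYN2 TEC, and in cultured Hepa1-6 cells it was not well above background (5.77). All TEC values were above the LSEC value, which was itself well above background. Anpep was 19.1-fold higher in HAK1B TEC, 13.9-fold higher in Hepa1-6 TEC and 40.8-fold higher in KYN2 TEC, with a mean log2 ratio of 4.47 ± 0.80 (SD, n = 3 TECs). Of the 26260 probes, 51 had a higher mean. The reading in KYN2 TEC was 2.94-fold that in Hepa1-6 TEC. Hepa1-6 TEC was at least 111-fold above the cultured cells of the same line.

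Ace was higher in TECs. Its only probe, A_52_P68028, read 6.26 in LSEC, 7.36 in HAK1B TEC, 7.52 in Hepa1-6 TEC and 7.99 in KYN2 TEC, and 5.84 in cultured cells, where it was not well above background. All TEC values were above the 1 LSEC value, and the TECs lay within 1.54-fold of each other. The mean log2 ratio over the TECs was 1.37, and 0.91 with normexp background correction. Ace was 2.15-fold higher in HAK1B TEC, 2.41-fold higher in Hepa1-6 TEC and 3.32-fold higher in KYN2 TEC.

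The Mme probes did not give 1 pattern. A_55_P2102738, which shares bases with probes of other genes, read 16.51 in LSEC, 16.35 in HAK1B TEC, 14.80 in Hepa1-6 TEC, 15.44 in KYN2 TEC and 14.59 in cultured cells. It was bright on every array, and its ratio to LSEC was 0.896 in HAK1B TEC, 0.305 in Hepa1-6 TEC and 0.475 in KYN2 TEC. The probe A_55_P2731961 was well above background only in HAK1B TEC (4.72) and Hepa1-6 TEC (4.08), against 2.40 in LSEC, and its bound was at least 1.03-fold in HAK1B TEC. The probes A_65_P20281 and A_66_P113268 were not well above background on any array.

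The brightest Lnpep probe showed little difference between LSEC and TECs. The probe A_66_P110807 read 10.64 in LSEC, 10.97 in HAK1B TEC, 10.18 in Hepa1-6 TEC, 10.52 in KYN2 TEC and 9.59 in cultured cells, so the TECs lay on both sides of LSEC. The mean log2 ratio was -0.09 ± 0.39 (SD, n = 3 TECs) for this probe, 0.62 ± 0.40 for A_55_P2925556, -0.21 ± 0.46 for A_55_P2737562 and -0.68 ± 0.52 for A_55_P2729983. The 4 probes thus had means of both signs. In HAK1B, Hepa1-6 and KYN2 TEC the log2 ratio of A_55_P2925556 was 0.96, 0.18 and 0.71, and that of A_55_P2729983 was -0.15, -1.20 and -0.70.

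Across the members, 15 of the 18 probes were well above background on at least 1 array and 13 on LSEC and all TEC arrays. A probe was called lower at a ratio to LSEC of at most 0.66 and higher at a ratio of at least 1.5. In all 3 TECs together, 6 of 15 member probes were lower (2 of Enpep, 3 of Dpp4 and 1 of Ece1), against 13% of all probes, and 3 were higher (Anpep, Ace and Mme A_55_P2731961), against 10.2%. The Mme probe counts here although it was not well above background in LSEC or KYN2 TEC. In HAK1B TEC 6 of 15 were lower and 4 higher, where 25.3% and 27.9% of all probes were. In Hepa1-6 TEC 9 of 15 were lower and 3 higher (32% and 34% of all probes), and in KYN2 TEC 8 of 14 were lower and 3 higher (28.1% and 26.9%). Enpep chose the set, so that nothing is read from these shares. When a Z-score of -2 or below was also asked for in each TEC, that is, a log2 ratio 2 SD below the mean of all probes, 3 member probes stayed lower, against 0.619% of all. They were the bright Enpep probe and the Dpp4 probes A_51_P467110 and A_52_P417368. With a Z-score of at least 2, Anpep was the only member higher in all TECs, against 0.37% of all probes.

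**Figure D2:**
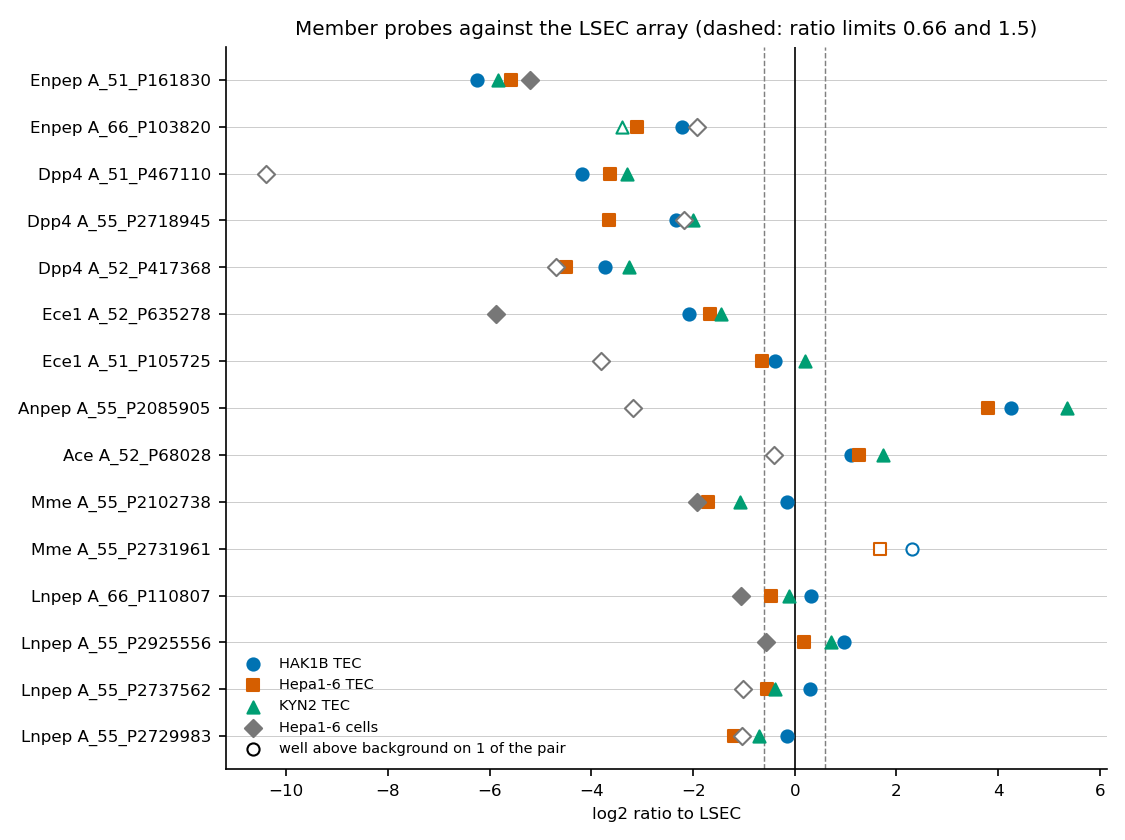
Log2 ratio to LSEC (horizontal axis) of the 15 member probes well above background on at least 1 array, for the 3 TECs and cultured Hepa1-6 cells, with open symbols where only 1 of the pair was well above background and dashed lines at ratios of 0.66 and 1.5. In the TECs the bright Enpep probe lies between -6.25 and -5.59 and Anpep between 3.79 and 5.35.

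Fewer of these probes were detected in cultured Hepa1-6 cells. Of 14 member probes well above background in LSEC or in the cells, 12 were lower in the cells and none higher, where 36.4% of all probes were lower and 37.3% higher. When both arrays had to be well above background, 4 of the 12 were left. Lnpep A_55_P2729983, 1 of the 12, had no bound. Only 5 of the 18 probes were well above background in the cells, namely the bright probes of Enpep, Ece1 and Mme and 2 of Lnpep. Anpep was at least 7.97-fold lower than in LSEC and Ace at least 1.23-fold lower. Anpep and Ace, which were higher in TECs, were thus not well above background in cultured cells of the line behind the Hepa1-6 TEC sample. That array had the highest floor. The lowest value called well above background was 5.96 on it and 2.83 to 4.68 on the others. Anpep (5.77) and Ace (5.84) lay just under it, so these readings do not show absence from the cells.

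Lists of related genes were set beside the members, with each gene read by its brightest probe. Over 26802 genes well above background on LSEC or at least 1 TEC array, 13.7% were lower and 10.3% higher in all 3 TECs, and a call can therefore rest in part on values not above background. Of 9 measured aminopeptidases of the M1 family, 1 was lower (Enpep) and 2 higher (Anpep and Npepps, the puromycin-sensitive aminopeptidase of the cytosol, at 2.27, 1.55 and 2.87-fold in HAK1B, Hepa1-6 and KYN2 TEC). Of 5 measured members of the neprilysin family only Ece1 was lower and none was higher. Mme entered this list, and the endothelin and natriuretic peptide lists below, by A_55_P2102738, which shares bases with probes of other genes. No other Mme probe was well above background in LSEC. In the Dpp4 family 3 of 9 were lower (Dpp4, the cytosolic Dpp8 and the lysosomal Dpp7) and 2 were higher (the prolyl peptidases Prep and Prcp). Dpp8 was 2.06, 3.92 and 2.87-fold lower, and Dpp7 2.18, 3.11 and 2.50-fold lower, in HAK1B, Hepa1-6 and KYN2 TEC. Of 8 measured carboxypeptidases and related enzymes of vasoactive peptides none was lower and 2 were higher (Ace and Cpm). Cpm, a membrane carboxypeptidase that trims kinins, was 1.54, 18.0 and 2.77-fold higher, and it was also bright in cultured Hepa1-6 cells (9.75, against 10.34 in Hepa1-6 TEC).

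In the renin-angiotensin list 1 of 12 measured genes was lower (Enpep) and 2 were higher (Anpep and Ace), so the genes that passed were all members. The type 1 angiotensin receptor Agtr1a read 5.09 in LSEC, 4.43 in Hepa1-6 TEC and 5.98 in KYN2 TEC, and was not well above background in HAK1B TEC (2.99). The TEC values thus lay on both sides of the LSEC value. In the endothelin list 1 of 8 was lower (Ece1) and 2 were higher, both of them receptors. Ednrb, the endothelin B receptor, read 8.17 in LSEC, 10 in HAK1B TEC, 10.05 in Hepa1-6 TEC and 11.98 in KYN2 TEC, which is 3.56, 3.69 and 14.1-fold higher. Ednra, the A receptor, was not well above background in LSEC and was at least 2.24, 2.08 and 4.02-fold higher.

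In the kinin and kallikrein list none of 9 was lower and 3 were higher (Cpm, Klk1 and Bdkrb2). Klk1, tissue kallikrein, which frees kinins, was 6.39, 2.62 and 2.27-fold higher in HAK1B, Hepa1-6 and KYN2 TEC. The B2 receptor Bdkrb2 was not well above background in LSEC (3.04) and read 8.34 in HAK1B TEC, 3.72 in Hepa1-6 TEC and 7.41 in KYN2 TEC. It was at least 12.6-fold higher in HAK1B TEC and at least 6.63-fold higher in KYN2 TEC, and the bound gave no fold in Hepa1-6 TEC. In the natriuretic peptide list 3 of 7 were lower and none higher. Npr1, the receptor of atrial natriuretic peptide, read 8.13 in LSEC, 4.47 in HAK1B TEC, 3.23 in Hepa1-6 TEC and 5.52 in KYN2 TEC. It was 12.7-fold lower in HAK1B TEC and 6.12-fold lower in KYN2 TEC, with a log2 ratio of -4.91 in Hepa1-6 TEC. The lowest values called well above background on these TEC arrays were 4.28, 2.83 and 4.65. Npr1 lay little above them, so its folds rest on signal near background. Nppa, which encodes atrial natriuretic peptide, and Npr2, the receptor of its C-type relative, were the others, with mean log2 ratios of -1.79 and -1.18.

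The adrenomedullin and calcitonin peptide list held 2 lower (Calcrl and Ramp2) and 2 higher genes (Ramp3 and the ligand Adm2) of 7. Adm2 was not well above background in LSEC or HAK1B TEC. Calcrl, the receptor, read 14.40 in LSEC, 11.10 in HAK1B TEC, 10.78 in Hepa1-6 TEC and 11.94 in KYN2 TEC (9.83, 12.3 and 5.51-fold lower). Ramp2, which pairs with it to bind adrenomedullin, was 6.85, 7.86 and 4.34-fold lower, whereas Ramp3, the other partner for adrenomedullin, was 4.49, 8.78 and 4.12-fold higher. Ramp3 was also bright in cultured Hepa1-6 cells (12.81). Among 15 measured other receptors and ligands of Dpp4 and neprilysin, none was lower and 4 were higher, namely the CXCL12 receptors Cxcr4 and Ackr3, the incretin receptor Gipr and Tac1, the precursor of substance P. Tac1 was well above background in Hepa1-6 TEC only, and Gipr was not in LSEC. Cxcr4 was 6.33, 1.98 and 5.35-fold higher and Ackr3 6.45, 2.44 and 4.81-fold higher.

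**Figure D3:**
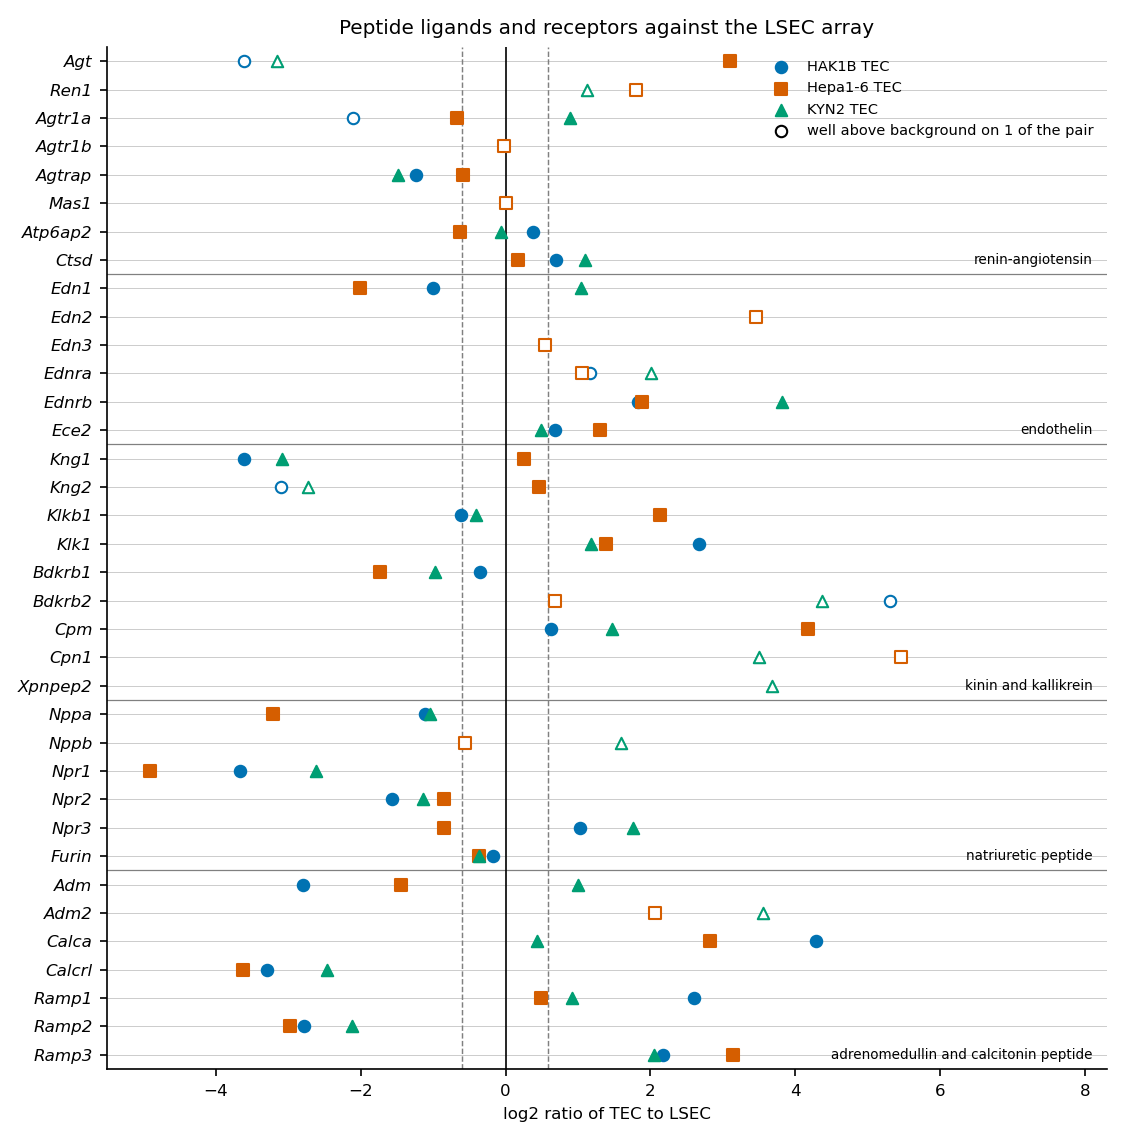
Log2 ratio of each TEC to LSEC (horizontal axis) for the measured genes of 5 peptide lists other than the 7 members, grouped by list, with open symbols where only 1 of the pair was well above background and dashed lines at ratios of 0.66 and 1.5. Npr1, Calcrl and Ramp2 lie left of the lower line in all 3 TECs, and Ednrb, Klk1 and Ramp3 lie right of the upper one.

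The genes whose pattern was most like that of the bright Enpep probe were sought among 20966 probes with the same background flags on the 5 arrays. Likeness was the root mean square difference of the log2 ratios to LSEC over the 4 other arrays. The closest were Serpina3b (1.40), Slc39a8, a zinc and manganese transporter (1.47), Adam23 (1.54), B020031M17Rik (1.70) and Lifr, the receptor of leukemia inhibitory factor (1.75). Slc39a8 read 13.53 in LSEC, 9.09 in HAK1B TEC, 9.38 in Hepa1-6 TEC, 9.07 in KYN2 TEC and 9.53 in cultured cells. Like Enpep it was high in LSEC and nearly level on the 4 other arrays. None of the 5 fell as far as Enpep in any TEC. Over the 3 TECs alone Cyp4b1 (1.27), Aass (1.41) and P2ry1 (1.54) came first, followed by Slc39a8 and Serpina3b.

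Cell type markers also differed between LSEC and TECs, some lists lower and others higher, and their part in these results was not tested. Of 14 pan-endothelial genes 11 were lower in all TECs, and of 15 LSEC genes 13 were. The summed linear intensity of the LSEC list was 855969 in LSEC and 90954 to 127889 in the TECs, and the median log2 ratio was -3.57 in HAK1B TEC, -3.16 in Hepa1-6 TEC and -2.38 in KYN2 TEC. The bright Enpep probe fell by more than this median in every TEC, as did Dpp4 A_51_P467110 and A_52_P417368. The second Enpep probe fell by less in HAK1B TEC (-2.21) and Hepa1-6 TEC (-3.11). Dpp4 A_55_P2718945 fell by less in HAK1B TEC (-2.34) and KYN2 TEC (-1.99). Low TEC values chose Enpep, so this comparison is a description too. The gene of the LSEC list with the lowest mean, Dnase1l3, had a log2 ratio of -5.45 in HAK1B TEC, -4.70 in Hepa1-6 TEC and -4.85 in KYN2 TEC. A probe of Aass, another gene of that list, had -4.89 in HAK1B TEC, -5.61 in Hepa1-6 TEC and -3.81 in KYN2 TEC. In Hepa1-6 TEC it was thus as low as the bright Enpep probe (-5.59).

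Hepatocytes also carry several of these peptidases. Of 14 hepatocyte genes 3 were lower in all TECs (Fabp1, Serpina1c and Cyp2e1) and none was higher. The median of the list was -3.88 in HAK1B TEC and -2.56 in KYN2 TEC but 0.55 in Hepa1-6 TEC, and its summed linear intensity was 47430 in LSEC, 2944 in HAK1B TEC, 81007 in Hepa1-6 TEC, 10713 in KYN2 TEC and 42611 in cultured Hepa1-6 cells. The cultured hepatoma cells thus carry signal of this list too, so that in Hepa1-6 TEC hepatocytes and hepatoma cells cannot be told apart by it. In HAK1B TEC, Apoa1, Ttr, Fabp1, Cyp3a11 and Hnf4a were not well above background.

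Anpep is also found on myeloid cells, stromal cells and epithelia. Of 12 neutrophil genes 6 were higher in all TECs, with a median log2 ratio of 4.66 in HAK1B TEC, 3.56 in Hepa1-6 TEC and 1.11 in KYN2 TEC. Ly6g, Cxcr2, Ltf and Ngp were not well above background in LSEC. The summed linear intensity of the neutrophil list was 94009 in LSEC and 203657 in HAK1B TEC, but lower in Hepa1-6 TEC (68578) and KYN2 TEC (82200). The Kupffer cell and macrophage list had medians of -0.59, -1.51 and -1.13 in HAK1B, Hepa1-6 and KYN2 TEC, with 6 of 12 lower and none higher. All 12 of its genes were well above background on LSEC and TEC arrays. In the dendritic cell list 2 of 8 were higher (Itgax and Flt3) and 3 lower (Clec9a, Zbtb46 and Siglech). Pericyte and stellate cell genes had medians of 0.43, 0.80 and 0.84 with 3 of 15 higher (Pdgfrb, Kcnj8 and Abcc9), and fibroblast genes of -0.48, 0.39 and 0.38 with 3 of 9 higher (Col1a1, Col1a2 and Col3a1). In the bile duct and other epithelium list 2 of 7 were higher (Spp1 and Krt7, the latter not well above background in LSEC or HAK1B TEC), with medians of 0.34, 3.69 and 1.11. Its summed linear intensity was 1066 in LSEC, 65066.5 in HAK1B TEC, 13985 in Hepa1-6 TEC and 59766.5 in KYN2 TEC. The medians of the T and NK cell list were 0.05, -0.01 and 0.32, and those of the B and plasma cell list 0.46, -1.09 and 0.33.

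**Figure D4:**
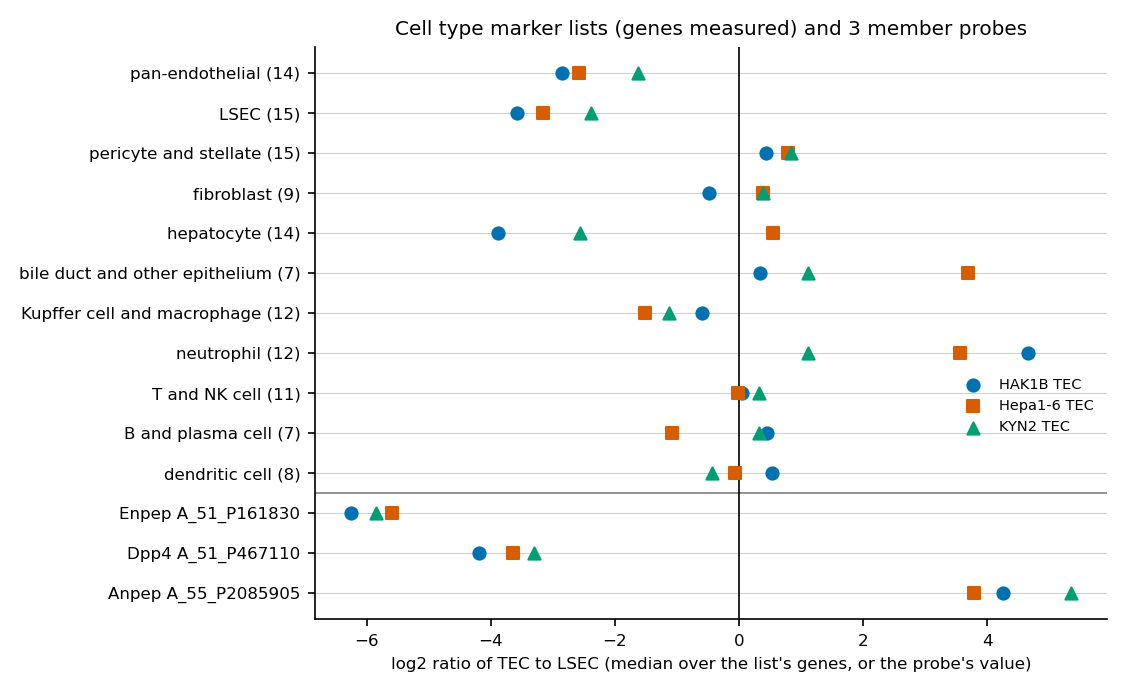
Median log2 ratio of each TEC to LSEC (horizontal axis) over the measured genes of 11 cell type lists (number of genes in brackets), with the probe values of Enpep, Dpp4 and Anpep below the line. The LSEC list lies between -3.57 and -2.38 and the bright Enpep probe between -6.25 and -5.59.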

How the data were processed

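RNA of LSECs, of TECs from HAK1B, Hepa1-6 and KYN2 tumors and of cultured Hepa1-6 cells was amplified, labelled with Cy3 and hybridized to Agilent 60-mer arrays, 1 per condition. The authors deposited linear spot intensities from Agilent Feature Extraction (version 9.5.1.1 per the labels), from which the software had subtracted background, together with its flags. They also deposited a table of normalized intensity values. According to the methods, signals were taken to log2 and quantile normalized for 2 samples at a time, and all 5 columns of the table share a median log2 value of 5.43. Which arrays were normalized together is not given in the sources used here.

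From the spot values, control spots and outlier spots were left out and repeated spots averaged on the log2 scale. Values were quantile normalized over the 5 arrays, a rule of size (ratio of 0.66 or 1.5) was applied, and 4460 lincRNA probes were left out of counts over all probes. No test was possible with 1 array per condition, and precision is limited by how few arrays there were. The median coefficient of variation of repeated spots was 2.53% to 2.93%, which covers 1 array. No spot was saturated. Alternatives were scaling to the 75th percentile, normalization by pair, normexp with an offset of 50 (limma 3.58.1, R 4.3.3), the deposited table, other background filters, each TEC left out, and the mean over Enpep probes. Everything else was run in Python 3.11.15 with pandas 2.3.3, numpy 2.4.6 and matplotlib 3.10.9. The calls were checked on simulated data.

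The members, 10 pathway lists and 11 cell type lists were chosen with earlier results of these data known. The text names every member probe, at most 3 genes of each pathway list that passed in all TECs with all 4 endothelial arrays above background, Agtr1a, Ednra, Ednrb and Bdkrb2 whatever their values, and the 5 genes most like Enpep. Other genes named from the lists, such as Dnase1l3, were chosen after their values were seen. Gene names are those on the array.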

Additional observations from a re-analysis of the deposited data

How the results depend on the processing

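The counts of member probes lower (5 to 8) and higher (2 to 4) in all TECs stayed within 1.5 times of 6 and 3 under every alternative run, including each TEC left out in turn. The mean log2 ratio of Enpep, -5.89, was -4.69 with normexp background correction and -4.40 as the mean over both Enpep probes, the second of which was not above background in KYN2 TEC, and lay between -6.05 and -5.71 with each TEC left out. Of 12 member probes lower in cultured Hepa1-6 cells, 4 were left when both arrays had to be above background, and 1 was higher with no background filter. The cause was not tested beyond the filters' own construction. The log2 ratio of Ece1 A_51_P105725 in Hepa1-6 TEC turned from -0.65 to 0.11 with scaling to the 75th percentile. No paired analysis was possible because no condition was repeated. Signal near background limits the dim values, and the largest shift of a member's ratio under normexp was 3.38 on the log2 scale, for Dpp4 A_51_P467110 in cultured cells.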
